A study of Mus musculus with 23 samples.

Results

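KH2 and R1 are both mouse embryonic stem cell (ESC) lines, and here the untreated baseline of KH2 was set against that of R1. A gene was kept where KH2 differed from each of 2 separately titled sets of R1 wild-type (WT) samples in the same direction, each with an adjusted p below 0.05, and where it lay on an autosome. Of 12517 autosomal genes tested, 2661 were kept, 1580 of them higher and 1081 lower in KH2. Another 457 tested genes on the X and Y chromosomes were left out. The comparison used 6 of the 19 samples of the series, made from 8 of its 23 libraries.

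The KH2 cells carry HA-tagged SETa, a form of the histone chaperone SET, under a tetR doxycycline (Dox) promoter, and the 2 KH2 samples used here had no Dox. The R1 samples are labelled wild type and untreated, and both lines were grown on plates coated with mouse embryonic fibroblasts (MEFs) in serum and leukaemia inhibitory factor (LIF), per the labels. R1 set 1 holds samples 1a and 1b. R1 set 2 holds samples 2a and 2b, each the sum of 2 libraries that share a title code. The series asks how SET, with p53 and β-catenin, bears on ESC differentiation. The labels do not tell whether replicates were grown separately, so each p-value reflects how these samples varied, which is possibly technical. Line, transgene, sample set and sequencing run cannot be told apart in this design, because KH2 samples form a set of their own. Below, paired values give the comparison with set 1 first and with set 2 second. A value after ± is a standard error (SE) worked back from the log2 fold change and its test statistic. Levels are CPM, counts relative to library size as scaled by the trimmed mean of M-values (TMM).

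Mouse ESCs in serum and LIF fluctuate between a naive state, resembling the early epiblast, and a formative state on the way to lineage commitment. LIF acts through JAK and STAT3 on Klf4 and Tfcp2l1, while fibroblast growth factor 4 acts through ERK and favours exit from the naive state. R1 and KH2 come from different mouse crosses. KH2 was derived from the hybrid line V6.5 and was built with the Dox transactivator at the Rosa26 locus and a docking site for transgenes next to Col1a1.

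Depth differed between the groups, at 4910275 and 4848478 counts in KH2, 1104278 and 1080040 in set 1, and 3246105 and 10217040 in set 2. The floor of 3 counts corresponds to between 0.294 and 2.78 CPM in these 6 samples. Against set 1, 5668 genes (45.3%) passed the test, 3072 higher and 2596 lower in KH2. Against set 2, 5585 genes (44.6%) passed, 2929 higher and 2656 lower, and without R1 sample 2b the count was 3512. The R1 sets also differed from each other, at 4722 genes (37.7%), 2539 higher and 2183 lower in set 2 (1990 and 2835 when scaled by total counts alone), so a difference from 1 set alone is close in extent to a difference between sets of the same line. The first and second library of a set 2 code differed for some genes, Klf4 below being 1 of them. With only the first libraries 2636 genes were kept and with only the second 2063, which hold 90.8% and 73.1% of the kept genes in turn. The comparisons share the KH2 samples, and the kept genes were 21.3% of those tested. Another 470 genes passed in both comparisons in opposite directions, and 680 kept genes also differed between the R1 sets. The gene just inside the threshold was Ppp5c, a phosphatase subunit, with adjusted p = 0.0002969 and 0.04998 (edgeR), and the gene just outside was Zeb1, a transcription factor of epithelial-mesenchymal transition, with adjusted p = 0.0488 and 0.05006 (edgeR).

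Among 11200 protein-coding genes, 1293 (11.5%) were kept as higher and 995 (8.88%) as lower in KH2, and 931 (8.31%) differed more than 2-fold from both sets. Processed pseudogenes stood apart, with 215 of 521 (41.3%) kept as higher and 18 as lower. They took 1.6% and 1.58% of the counts in the KH2 samples, 1.84% and 1.48% in set 1, and 0.845% to 0.938% in the 4 set 2 libraries. In KH2, 2320 and 2226 processed pseudogenes had a count, against 916 and 808 in the shallower set 1 samples and 891 to 1788 in the set 2 libraries. Of 55 small nucleolar RNAs, 18 were kept as lower and 0 as higher, with 23 lower and 3 higher against set 1 and 27 lower and 3 higher against set 2 (edgeR, adjusted p below 0.05). Since deposited counts of gene copies depend on where reads align uniquely, pseudogenes and their parent genes are treated as uncertain, and the lists below rest mostly on protein-coding genes.

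The kept protein-coding genes were looked up in samples that the rule had not used. These were the 2 KH2 samples with Dox and the 8 undifferentiated R1 samples labelled SET knockout, 4 in each set. For 1583 of 2288 genes (69.2%) KH2 with Dox lay beyond all 8 R1 knockout samples on the same side as in the comparison above. For 14 it lay beyond them on the opposite side, and for 691 the groups overlapped. Over all 11200 protein-coding genes, KH2 with Dox and R1 knockout samples did not overlap for 3905 (34.9%). Line and sample set are joined in these samples too, so they cannot be told apart here either.

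Running medians along the chromosomes showed a stretch of chromosome 6 whose genes were lower together in KH2. It ran from Fkbp9 to Itpr1, chr6:56832059-108551109 (GRCm38), and covered 51.7 Mb. The stretch was delimited from these fold changes, by positions where the median of 21 neighbouring protein-coding genes passed 0.5 in both comparisons. Passing positions up to 20 genes apart were joined and at least 15 were required, so genes between them need not have passed. The values of the stretch are thus a description with no test. Of its 167 tested protein-coding genes, 89 (53.3%) were kept as lower and 5 as higher. The fold change was below 0 in both comparisons for 136 of them and above 0 in both for 9. The median log2 fold change was -1.05 and -0.96, while the median difference between the R1 sets over the same genes was 0.06. In the other 362 genes of chromosome 6 the medians were -0.11 and -0.07.

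The ends of the chromosome 6 stretch were placed by these same fold changes, so a step there follows in part from the rule. In the 20 genes before its start (Skap2 to Kbtbd2) the medians were -0.28 and -0.32, and in the first 20 inside (Fkbp9 to Thnsl2) -0.99 and -0.99. The last 20 inside (Fam19a4 to Itpr1) had medians of -1.24 and -0.99, and the 20 genes after its end (Bhlhe40 to Emc3) 0.13 and 0.03. Several named genes lie inside it. Mcm2, a subunit of the replicative helicase at chr6:88883474-88898780, stood at 234 and 235 CPM in KH2, 345 and 474 in set 1, and 503 and 607 in set 2. Its KH2 samples lay below all 4 R1 samples, and the log2 fold change was -0.91 ± 0.16 and -1.24 ± 0.15 (edgeR adjusted p = 3.36e-05 and 3.1e-07). Mad2l1, a spindle checkpoint protein, stood at 35.5 and 41.1 CPM in KH2, 123 and 100.1 in set 1, and 61.8 and 80.1 in set 2, and the methylcytosine dioxygenase Tet3 at 4.07 and 3.76 CPM in KH2, 10.5 and 11.6 in set 1, and 17.6 and 14.9 in set 2. Both were lower in KH2 than in either set without overlap, with log2 fold changes of -1.65 and -0.90 and -1.59 and -2.01 in turn. Mthfd2, a mitochondrial folate enzyme (-1.21 and -1.08), Gadd45a, a p53 target (-2.95 and -1.10), Tcf7l1, a repressor of Wnt targets (-0.53 and -1.40), and Hk2, a hexokinase (-1.18 and -0.68), were also kept as lower. The small RNA gene Rn7s6 went the other way, at 50.3 and 46.5 CPM in KH2, 0 and 0 in set 1, and 0 and 0.108 in set 2, and multicopy genes of its kind have uncertain counts.

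**Figure D1:**
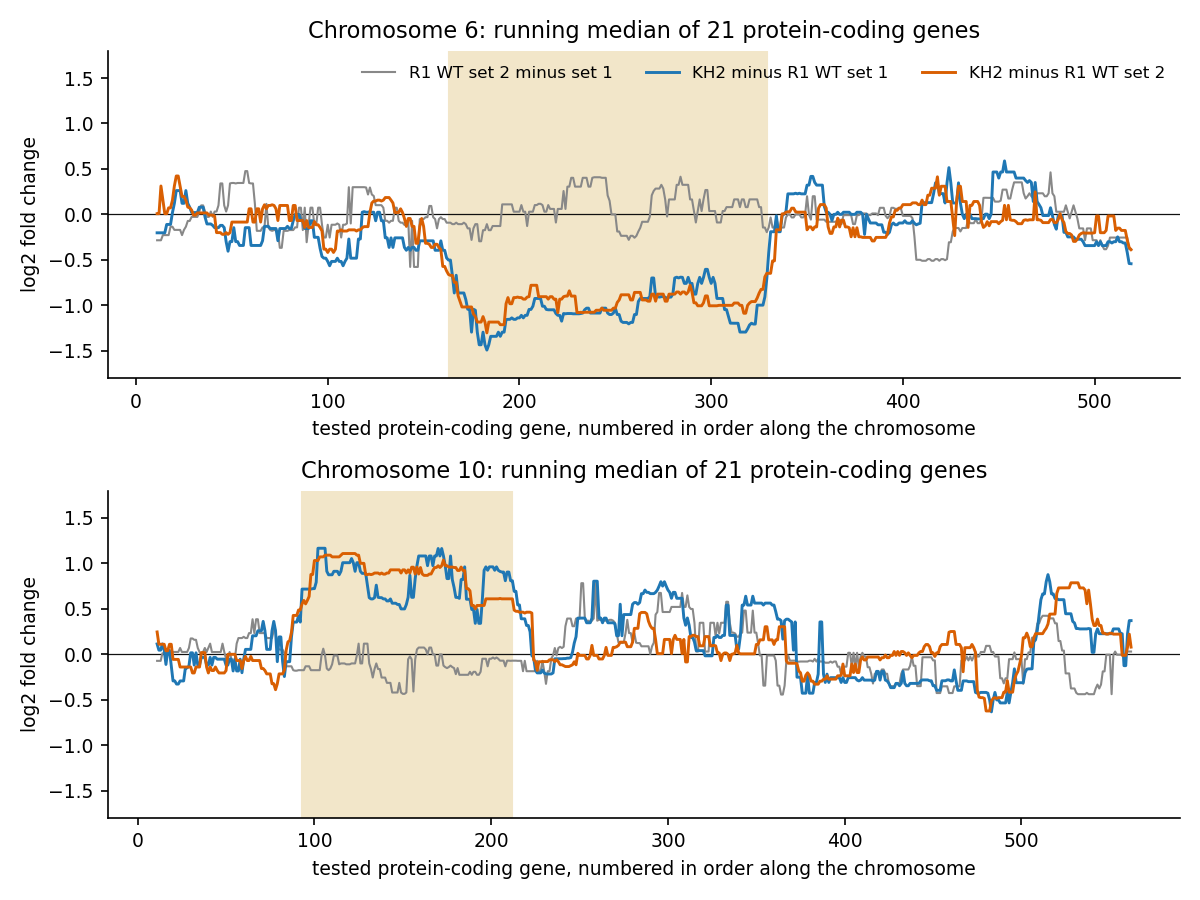
Running median of the log2 fold change over 21 neighbouring protein-coding genes (y axis) against gene order (x axis) on chromosome 6 (top) and chromosome 10 (bottom), for KH2 minus R1 set 1, KH2 minus R1 set 2 and R1 set 2 minus set 1, with the delimited stretches shaded. Both KH2 curves drop to around -1 in the chromosome 6 stretch and rise to around 1 in the chromosome 10 stretch, where the curve for the R1 sets stays near 0.

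A second stretch, on chromosome 10, was higher in KH2. It ran from Amd2 to Cisd1, chr10:35708675-71344954 (GRCm38), a length of 35.6 Mb. Of its 120 tested protein-coding genes, 63 (52.5%) were kept as higher and 1 as lower, and 96 were above 0 in both comparisons. The median log2 fold change was 0.88 and 0.93, against -0.13 between the R1 sets. The 452 other genes of the chromosome had medians of 0.05 and 0.01. In the 20 genes before the start (L3mbtl3 to Nt5dc1) the medians were -0.16 and -0.09, and in the first 20 inside (Amd2 to Smpd2) 1.19 and 1.05. The last 20 inside (Hnrnph3 to Cisd1) had medians of 0.94 and 0.57, and the 20 after the end (Ipmk to Gm867) 0.12 and 0.46. The medians thus changed less across this end than across the start, and both ends were placed by these same fold changes.

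Hexokinase 1, encoded by Hk1 at chr10:62268855-62379908 inside the stretch, stood at 167 and 162 CPM in KH2, 27.4 and 29.8 in set 1, and 23.7 and 25.4 in set 2, a log2 fold change of 2.42 ± 0.19 and 2.75 ± 0.16 (edgeR adjusted p = 1.27e-10 and 3.39e-13). The cell cycle kinase gene Cdk1 (1.65 and 0.47), the stress gene Sesn1 (1.64 and 1.09), the collagen hydroxylase subunit gene P4ha1 (1.24 and 1.19), the ligand gene Nodal (1.08 and 0.87) and the mTORC1 inhibitor gene Ddit4 (3.73 and 2.24) lie there too and were kept as higher. Srgn, encoding the proteoglycan serglycin, was the 1 gene of the stretch kept as lower (-4.61 and -3.24). Another 12 runs on the autosomes passed the same limit of the median but fell short of the 15 positions required, the longest of 5 genes.

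Each sample was also set against the mean of the 4 R1 WT samples. Over the chromosome 6 genes the medians of the KH2 samples were -0.93 and -0.90, and those of KH2 with Dox were -0.87 and -0.95. Over the chromosome 10 genes they were 0.97 and 0.97, and 1.10 and 1.06 with Dox. The 12 R1 samples, WT and knockout, lay between -0.14 and 0.11 for chromosome 6 and between -0.18 and 0.12 for chromosome 10, so the lines did not overlap in either. For untreated KH2 and R1 WT that separation follows from how the stretches were delimited. KH2 with Dox against R1 knockout, where no sample had been used to delimit the stretches, differed by a median of -0.79 (set 1) and -0.94 (set 2) on chromosome 6 and by 1.11 and 0.97 on chromosome 10. Taken whole, chromosome 6 had medians of -0.37 and -0.34 with 121 of 529 genes (22.9%) kept as lower, and chromosome 10 medians of 0.23 and 0.22 with 121 of 572 (21.2%) kept as higher. The other 17 autosomes had medians of -0.15 to 0.18 against set 1 and -0.13 to 0.09 against set 2. Outside both stretches, 1225 of 10913 protein-coding genes were kept as higher and 905 as lower. DNA copy number was not measured in these files and its part in either stretch was not tested.

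**Figure D2:**
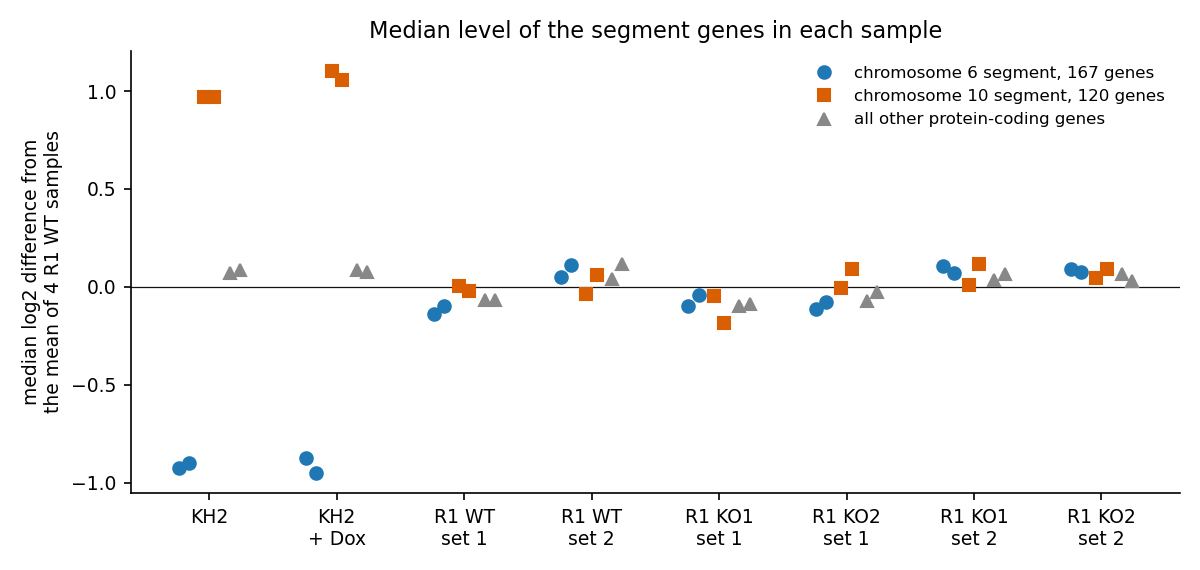
Median log2 difference from the mean of the 4 R1 WT samples (y axis) for each untreated or Dox-treated sample by group (x axis), over the genes of the chromosome 6 stretch, the chromosome 10 stretch and the other protein-coding genes; each point is 1 sample. KH2 samples with and without Dox sit between -0.95 and -0.87 on chromosome 6 and between 0.97 and 1.10 on chromosome 10, apart from the 12 R1 samples near 0.

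Genes of the core and naive pluripotency network did not move as 1 block. Of 36 tested members, 9 were kept as higher and 7 as lower in KH2, shares of 25% and 19.4% beside 11.5% and 8.88% of protein-coding genes, and their median log2 fold change was -0.14 and 0.10 beside 0.04 and 0.01 over all tested autosomal genes. Klf4, a transcription factor induced by LIF at chr4:55527143-55532466, was 1 of the markers chosen for this comparison and stood at 1250.3 and 1108 CPM in KH2, 345 and 277 in set 1, and 426 and 479 in set 2. Both KH2 samples lay above all 4 R1 samples, and the log2 fold change was 1.82 ± 0.15 and 1.39 ± 0.14 (edgeR adjusted p = 3e-10 and 1.95e-08). The libraries summed into set 2 differed from each other for this gene, at 572, 284, 515, 284 CPM in the first and second library of 2a and then of 2b, all below KH2. With Dox, KH2 stood at 1078 and 1339 CPM.

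Esrrb, an orphan nuclear receptor of the naive network, stood at 556 and 503 CPM in KH2, 219.5 and 304 in set 1, and 314 and 377 in set 2. Its KH2 samples were again above all R1 samples, with a smaller log2 fold change of 0.91 ± 0.16 and 0.62 ± 0.15 (edgeR adjusted p = 4e-05 and 0.00147). The other naive factors kept as higher were Tfcp2l1, a STAT3 target (1.10 and 0.93), Klf2 (1.18 and 1.35) and Tbx3 (0.74 and 0.42), beside the growth factor gene Fgf4 (1.32 and 0.56) and the cell cycle transcription factor gene Mybl2 (1.47 and 0.65). Dppa3, which encodes a protein that shields DNA from maintenance methylation, had 70.4 and 73.2 CPM in KH2, 7.26 and 10.8 in set 1, and 11.4 and 13.5 in set 2. The Akt coactivator Tcl1 had 221 and 230.3 CPM in KH2, 51.7 and 57.1 in set 1, and 54.0 and 62.5 in set 2. For both genes the KH2 samples lay far above the R1 samples, at log2 fold changes of 2.89 ± 0.28 and 2.51 ± 0.19 for Dppa3 (edgeR adjusted p = 3.99e-09 and 7.18e-11) and 1.95 ± 0.17 and 1.95 ± 0.15 for Tcl1 (edgeR adjusted p = 7.42e-10 and 4.43e-11).

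Other pluripotency markers were lower in KH2. Zfp42, encoding the widely used marker REX1, stood at 70.4 and 67.9 CPM in KH2, 349 and 346 in set 1, and 185 and 234 in set 2. Its log2 fold change was -2.43 ± 0.16 and -1.59 ± 0.15 (edgeR adjusted p = 2.03e-12 and 3.88e-09), opposite in sign to that of Klf4 and Esrrb. The homeobox gene Gbx2, a LIF target, stood at 5.35 and 3.54 CPM in KH2, 82.3 and 102 in set 1, and 22.4 and 23.8 in set 2, with log2 fold changes of -4.46 ± 0.26 and -2.36 ± 0.26 (edgeR adjusted p = 1.62e-13 and 5.91e-08). Dppa2, which marks pluripotent cells and acts on 2-cell-stage genes, was lower as well (-1.84 and -1.03), as were L1td1 (-1.31 and -1.20), Jarid2 (-0.77 and -0.97), Rif1 (-1.0 and -0.48) and Zfp281 (-0.84 and -0.50).

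The central factors were not kept. Nanog stood at 148 and 167 CPM in KH2, 242 and 196 in set 1, and 119.7 and 152 in set 2, so KH2 lay below set 1 and overlapped set 2. Its log2 fold change was -0.58 ± 0.16 and 0.21 ± 0.15 (edgeR adjusted p = 0.00402 and 0.269), and without the first KH2 sample the difference from set 1 was -0.48 (edgeR adjusted p = 0.076). Sox2 stood at 415 and 421 CPM in KH2, 747 and 662 in set 1, and 466 and 477 in set 2, lower than set 1 (edgeR adjusted p = 1.57e-05 and 0.339) with no call against set 2. Pou5f1, encoding OCT4, had few counts, at 10.1 and 11.1 CPM in KH2, 19.4 and 14.9 in set 1, and 5.20 and 9.52 in set 2 (edgeR adjusted p = 0.0569 and 0.254). It has processed pseudogene copies, so its level is uncertain. Its difference from set 1 was called as lower when scaled by total counts alone (-0.95, edgeR adjusted p = 0.0265) and with only the first (-0.81, edgeR adjusted p = 0.0478) or only the second set 2 libraries in the fit (-0.82, edgeR adjusted p = 0.0423). With the second library of each set 2 code alone its difference from set 2 was 1.19 (edgeR adjusted p = 0.0184), and that of Nanog 0.52 (edgeR adjusted p = 0.00968). The 10 ESC markers together summed to 4254 and 4114 CPM in KH2, 3728 and 3383 in set 1, and 2708 and 3043 in set 2, with none at 0 in a sample, so the label of ESCs was borne by its markers in both lines.

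**Figure D3:**
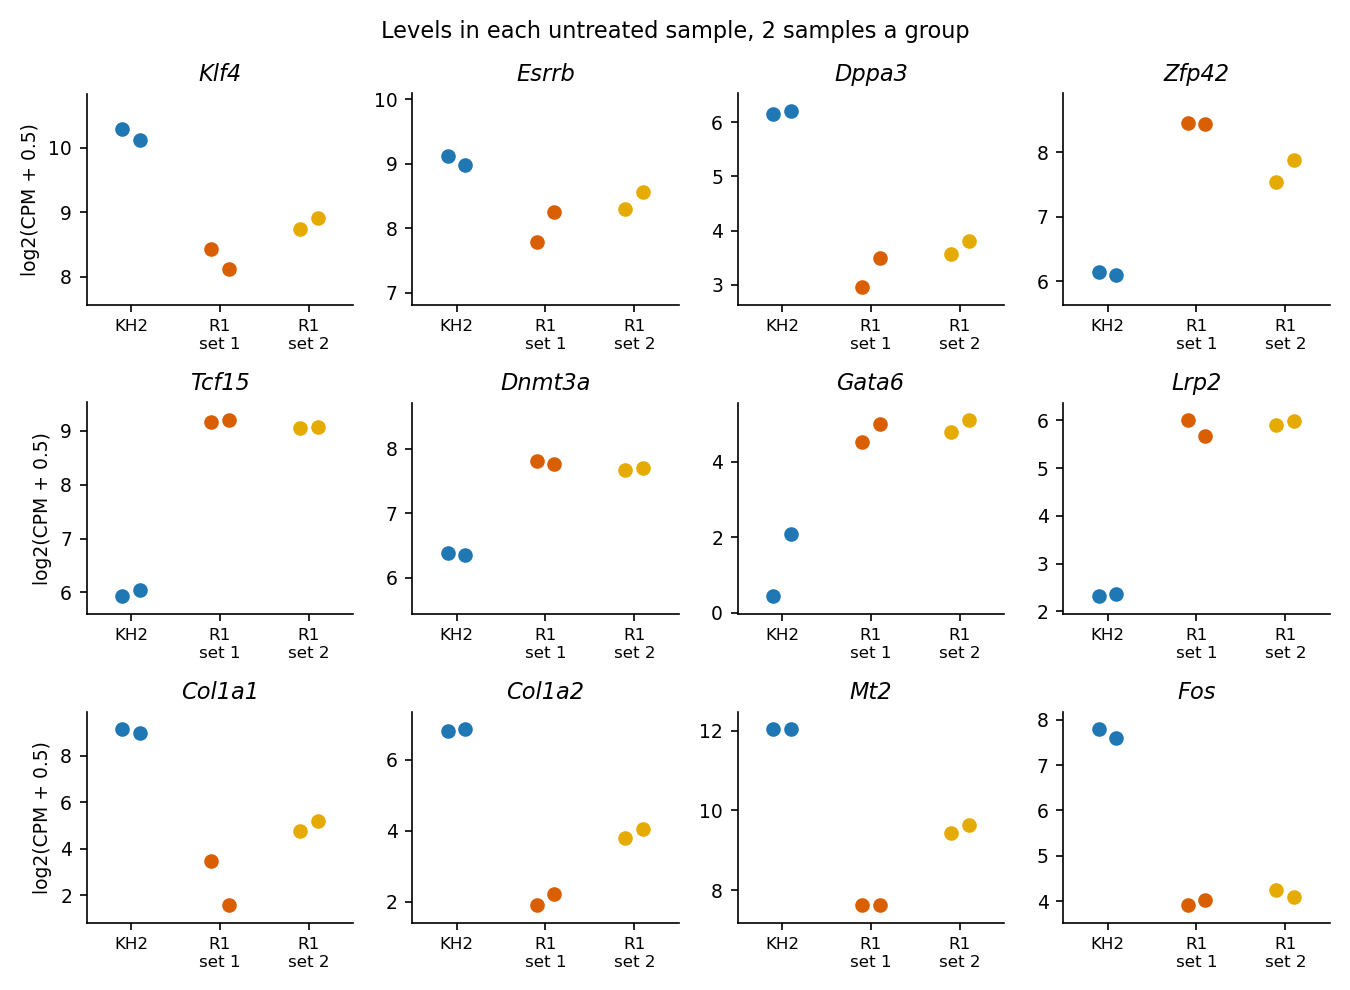
Level of 12 genes on a log2(CPM + 0.5) scale (y axis) in KH2, R1 set 1 and R1 set 2 (x axis), 1 point for each of the 6 untreated samples. Klf4, Esrrb, Dppa3, Col1a1, Col1a2, Mt2 and Fos are higher in both KH2 samples than in the 4 R1 samples, and Zfp42, Tcf15, Dnmt3a, Gata6 and Lrp2 are lower.

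Formative and primed genes were lower more often than higher, at 40% and 8% of tested members beside 8.88% and 11.5% of protein-coding genes. Of 25 tested members, 10 were kept as lower (6 without the first KH2 sample) and 2 as higher, with a median of -0.50 and -0.56. Tcf15, a basic helix-loop-helix factor that primes ESCs for commitment, stood at 60.6 and 65.5 CPM in KH2, 573 and 585 in set 1, and 529.7 and 533 in set 2. Its KH2 samples were far below all 4 R1 samples, at -3.30 ± 0.15 and -3.07 ± 0.15 (edgeR adjusted p = 1.6e-15 and 1.02e-14). The de novo methyltransferase gene Dnmt3a stood at 83.2 and 81.4 CPM in KH2, 223 and 217 in set 1, and 204 and 207 in set 2, a log2 fold change of -1.52 ± 0.15 and -1.31 ± 0.14 (edgeR adjusted p = 7.01e-09 and 4.49e-08). Lef1, a transcription factor of the Wnt pathway, was lower by -1.54 and -1.17. Foxd3 (-1.18 and -1.77), Fgf15 (-1.05 and -1.25), Pou3f1 (-0.88 and -1.07), Otx2 (-0.50 and -0.77) and Zic5 (-0.55 and -0.50) were lower too. The 2 exceptions were Nodal (1.08 and 0.87), inside the chromosome 10 stretch, and Cdh2, encoding N-cadherin, at 26.7 and 27.4 CPM in KH2, 2.42 and 3.31 in set 1, and 7.48 and 7.46 in set 2.

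Within the DNA methylation machinery, 4 of 23 tested members (17.4%) were kept as lower and 2 (8.7%) as higher, with medians of -0.13 and -0.37. Among protein-coding genes the shares were 8.88% and 11.5%. Without the second KH2 sample 2 were lower, and without either KH2 sample or either set 2 sample 1 was higher. The lower members were Dnmt3a, Tet3 (values above), Setdb1, a histone methyltransferase (-1.11 and -0.63), and Dnmt3b, a second de novo enzyme, at 339 and 319.6 CPM in KH2, 401 and 436 in set 1, and 916 and 801 in set 2. The call for Dnmt3b against set 1 was lost without the first KH2 sample (-0.48, edgeR adjusted p = 0.0629) and without the second (-0.40, edgeR adjusted p = 0.123). Dppa3 and the maintenance enzyme gene Dnmt1 (0.71 and 0.42) were the higher members. DNA methylation itself was not measured in these files.

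LIF pathway genes were split, with 7 of 25 tested members (28%) kept as higher and 5 (20%) as lower and medians of 0.41 and 0.34. Among protein-coding genes 11.5% were higher and 8.88% lower. Besides Klf4, Tfcp2l1 and the immediate early genes below, the higher members were Junb (1.39 and 1.01), Pias3 (1.02 and 0.70) and Mcl1, a survival factor (0.41 and 0.34). The receptor gene Lifr (-0.85 and -1.11), the feedback inhibitor gene Socs2 (-0.79 and -0.97) and the phosphatase gene Ptpn11 (-0.71 and -0.93) were lower, as were Gbx2 and Myc. The transcription factor gene Myc stood at 1.71 and 2.65 CPM in KH2, 35.5 and 49.6 in set 1, and 8.78 and 17.5 in set 2, a log2 fold change of -4.37 ± 0.38 and -2.67 ± 0.37 (edgeR adjusted p = 5.59e-10 and 2.26e-06).

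Genes of the FGF-ERK pathway and its feedback were lower in 7 of 28 tested members (25%) and higher in 3 (10.7%), with medians of -0.13 and -0.03. Beside 8.88% lower and 11.5% higher among protein-coding genes, the higher share was near that of all genes. Spry4, a feedback inhibitor of receptor tyrosine kinases, stood at 6.85 and 10.4 CPM in KH2, 165 and 108 in set 1, and 27.0 and 41.1 in set 2. That is a log2 fold change of -4.09 ± 0.25 and -2.02 ± 0.25 (edgeR adjusted p = 8.18e-13 and 4.44e-07). The receptor gene Fgfr2 (-2.19 and -1.97) and the inhibitor genes Dusp4 (-2.43 and -1.53), Il17rd (-0.90 and -1.01), Spred1 (-1.20 and -0.63) and Spry2 (-1.12 and -0.54) were lower as well. On the higher side were Fgf4, the kinase gene Mapk3 (2.04 and 0.74) and Egr1 (1.5 and 0.72), which ERK induces.

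Fos, Jun, Junb and Egr1, immediate early genes that cells induce within minutes of a stimulus or of handling, were kept as higher in KH2. Fos stood at 221 and 192 CPM in KH2, 14.5 and 15.7 in set 1, and 18.5 and 16.5 in set 2, a log2 fold change of 3.66 ± 0.22 and 3.59 ± 0.17 (edgeR adjusted p = 5.02e-13 and 7.1e-15). Jun stood at 215 and 214 CPM in KH2, 17.8 and 24.0 in set 1, and 55.6 and 48.1 in set 2, a log2 fold change of 3.26 ± 0.21 and 2.08 ± 0.15 (edgeR adjusted p = 1.9e-12 and 3.83e-11). In KH2 with Dox, Fos had 275 and 213 CPM and Jun 199 and 209 CPM, so both stayed above the R1 WT range there, while the undifferentiated R1 knockout samples ran over 17.4 to 47.4 CPM for Fos and 76.1 to 114 CPM for Jun. The handling time before lysis is not given in the labels, and its part was not tested.

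Markers of primitive and visceral endoderm, the extraembryonic lineage that forms next to the epiblast, were the list with the lowest medians of those with at least 10 tested members. Of 28, 18 (64.3%) were kept as lower and 1 (3.57%) as higher, beside 8.88% and 11.5% of protein-coding genes. The median log2 fold change was -2.18 and -1.89. Lrp2, encoding the endocytic receptor megalin, stood at 4.49 and 4.65 CPM in KH2, 63.8 and 50.4 in set 1, and 59.5 and 62.9 in set 2, a log2 fold change of -3.74 ± 0.26 and -3.73 ± 0.23 (edgeR adjusted p = 9.88e-12 and 1.1e-12). The lineage-determining factor gene Gata6 stood at 0.856 and 3.76 CPM in KH2, 22.6 and 31.4 in set 1, and 27.0 and 34.0 in set 2, a log2 fold change of -3.65 ± 0.41 and -3.73 ± 0.34 (edgeR adjusted p = 5.98e-08 and 2.04e-09). The adaptor gene Dab2 stood at 9.84 and 8.41 CPM in KH2, 105 and 95.9 in set 1, and 77.4 and 77.4 in set 2 (-3.56 and -3.07). In these genes both KH2 samples were below the 4 R1 samples.

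Other lower members of the endoderm list were Cubn, a partner of megalin that was 75.9-fold lower (95% counting interval 19.5 to 653, from 2 counts in KH2 and 34 in set 1) than set 1 and 38.1-fold lower (95% counting interval 10.3 to 318, from 2 counts in KH2 and 105 in set 2) than set 2, the transcription factor genes Sox17 (-2.64 and -3.01), Sox7 (-3.83 and -3.15) and Gata4 (-3.92 and -2.21), and the receptor genes Pdgfra (-2.45 and -1.59) and Pth1r (-2.22 and -2.83). The basement membrane genes Col4a1 (-1.79 and -1.54), Col4a2 (-2.17 and -2.05), Lama1 (-2.49 and -1.33) and Lamc1 (-0.92 and -0.63) were lower too. The exception was Apoe, encoding a lipid carrier that other cell types also express, at 623 and 744 CPM in KH2, 214 and 222 in set 1, and 151 and 136 in set 2 (1.54 and 2.26). The sum of the list's 33 genes found in the files, Apoe included, did not separate the groups. It stood at 1827 and 1980 CPM in KH2, 1762 and 1546 in set 1, and 1857 and 1954 in set 2. Of this, Apoe contributed 623 and 744 CPM in KH2, 214 and 222 in set 1, and 151 and 136 in set 2. The sum thus does not describe the lower members alone. The terminal markers Afp, Ttr and Apoa1 were too low to be tested in either line. In these bulk samples, fewer cells of a type and less RNA per cell cannot be told apart.

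Primitive streak, mesoderm and definitive endoderm genes went apart between the comparisons, with medians of 0.43 and -1.56. Beside 8.88% and 11.5% of protein-coding genes, 36.8% and 5.26% were kept as lower and higher over 19 tested members. Of these, 7 were kept as lower (4 without R1 sample 2b) and 1 as higher (0 without either KH2 sample, 1b or 2b). Foxa2, an endoderm factor, stood at 1.5 and 2.43 CPM in KH2, 8.88 and 6.62 in set 1, and 43.2 and 42.1 in set 2. KH2 was below both sets, and the R1 sets differed from each other in this gene. Bmp4, a mesoderm-inducing ligand, stood at 8.13 and 6.86 CPM in KH2, 84.7 and 56.2 in set 1, and 15.9 and 25 in set 2. With only the second libraries of set 2 its difference from that set was -0.56 (edgeR adjusted p = 0.186).

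Markers of fibroblasts, the feeder cells of these cultures, were higher in KH2. Of 33 tested members, 19 (57.6%) were kept as higher and 0 as lower, beside 11.5% and 8.88% of protein-coding genes. The medians were 2.54 and 1.21. Against set 1, 27 members passed as higher and 0 as lower at an adjusted p below 0.05, and against set 2, 20 and 2. The 22 cell type markers summed to 3001 and 2956 CPM in KH2, 1077 and 873 in set 1, and 1535 and 1691 in set 2. KH2 with Dox summed to 2301 and 2104, and the undifferentiated R1 knockout samples to between 2039 and 2520, so the sums of KH2 with Dox and R1 knockout overlapped. Of the defining markers, Lum was at 0 in all 4 R1 WT samples and at 0.642 and 0 CPM in KH2. Dcn was at 0 in set 1, at 1.63 and 2.38 CPM in set 2 and at 2.57 and 6.86 CPM in KH2.

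Col1a1, encoding the alpha-1 chain of type I collagen at chr11:94936224-94953042 and used as a marker for this comparison, stood at 569 and 509 CPM in KH2, 10.5 and 2.48 in set 1, and 27.0 and 36.4 in set 2. Both KH2 samples lay far above the R1 samples, with a log2 fold change of 6.25 ± 0.28 and 4.06 ± 0.19 (edgeR adjusted p = 7.41e-16 and 4.22e-15). With Dox, KH2 had 359 and 304 CPM, and the R1 knockout samples ran over 44.6 to 64.9 CPM. Col1a2, its partner chain on another chromosome, stood at 111 and 116 CPM in KH2, 3.23 and 4.13 in set 1, and 13.3 and 16.0 in set 2, a log2 fold change of 4.83 ± 0.31 and 2.93 ± 0.18 (edgeR adjusted p = 1.44e-12 and 6.4e-13). Col6a3, a collagen VI chain, stood at 42.4 and 39.2 CPM in KH2, 0.807 and 0 in set 1, and 6.18 and 6.49 in set 2. It was 83.9-fold higher (95% counting interval 15.0 to 3320.0, from 375 counts in KH2 and 1 in set 1) than set 1 and had a log2 fold change of 2.69 against set 2. Lox, the collagen cross-linking oxidase gene, stood at 52.0 and 48.9 CPM in KH2, 2.42 and 3.31 in set 1, and 11.4 and 14.8 in set 2 (4.02 and 1.91). Vim (0.81 and 1.21) and Fn1 (1.23 and 1.36), which ESCs also express, were higher by less. The parts of feeder carry-over and of the transgene docking site next to Col1a1 in these values were not tested.

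Neighbours of the loci known to be targeted in KH2 did not follow Col1a1. Of 10 tested genes, Col1a1 was kept as higher and 2 as lower, Eme1, a DNA repair nuclease subunit gene (-2.34 and -1.20), and Itga3, an integrin gene (-1.0 and -0.74). Both lower calls were lost without R1 sample 2b (Eme1 -1.34, edgeR adjusted p = 0.117, and Itga3 -0.56, edgeR adjusted p = 0.237, against set 2), and 1 of the 2 was lost without either KH2 sample, 1a or 2a. The transcript of the Rosa26 locus, Gt(ROSA)26Sor at chr6:113067428-113077333, outside the chromosome 6 stretch, stood at 11.1 and 13.3 CPM in KH2, 8.88 and 6.62 in set 1, and 7.48 and 4.65 in set 2 (edgeR adjusted p = 0.286 and 0.00462). Without the second KH2 sample the difference from set 2 was 1.0 (edgeR adjusted p = 0.0577), and without 2b 0.67 (edgeR adjusted p = 0.23). Reads were counted without strand, so antisense transcripts there cannot be told apart.

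Set itself was not kept. It stood at 1020.5 and 964 CPM in KH2, 943 and 979 in set 1, and 1198 and 1454 in set 2, with a log2 fold change of -0.06 ± 0.14 and -0.41 ± 0.14 (edgeR adjusted p = 0.751 and 0.0162). The call against set 2 was lost without either KH2 sample (edgeR adjusted p = 0.0724 and 0.161) and without 2b (edgeR adjusted p = 0.262). With Dox the KH2 samples had 1267 and 1126 CPM. Whether transcripts of the SETa construct end in a region counted as Set was not tested. Among histone chaperones, SET partners and PP2A subunits, 5 of 39 were kept as higher and 5 as lower (12.8% each, near the shares of all protein-coding genes), with medians of -0.04 and -0.13. The higher count was 3 without the second KH2 sample, and the lower count 2 without either KH2 sample and 1 without either set 2 sample. On the higher side were Hjurp, the chaperone of centromeric histone (1.31 and 0.80), the SET relative Anp32a (1.21 and 0.69) and the PP2A methylesterase gene Ppme1 (1.73 and 0.63).

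Glycolysis and hypoxia genes were higher in 17 of 37 tested members (45.9%) and lower in 1 (2.7%), with medians of 0.58 and 0.94. Among protein-coding genes the shares were 11.5% and 8.88%. Outside the chromosome 6 and 10 stretches the counts were 14 and 0 of 33. Hk1 is described above. Aldoc, an aldolase gene, stood at 198 and 215 CPM in KH2, 37.9 and 43.8 in set 1, and 43.6 and 35.4 in set 2, a log2 fold change of 2.23 ± 0.19 and 2.43 ± 0.16 (edgeR adjusted p = 3.82e-10 and 4.04e-12). The hypoxia-induced gene Ndrg1 stood at 171 and 172 CPM in KH2, 21 and 23.2 in set 1, and 35.8 and 31.9 in set 2, a log2 fold change of 2.85 ± 0.20 and 2.37 ± 0.16 (edgeR adjusted p = 1.7e-11 and 4.27e-12). Gpi1 (1.81 and 1.56), Pkm (1.32 and 1.11), Ldhb (1.43 and 1.77) and Vegfa (0.84 and 1.62) were among the other higher members. The single lower member, Hk2, lies in the chromosome 6 stretch, and it was no longer called without the second KH2 sample. Without R1 sample 1b, 2 members were kept as lower. Gapdh, which has many near-identical pseudogenes, ran to 5.78 and 5.53 CPM in KH2, 383 and 347 in set 1, and 1.63 and 1.95 in set 2 and is uncertain.

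Of 47 tested p53 targets, 17 were kept as higher and 3 as lower (1 without the first KH2 sample), with medians of 0.43 and 0.34, and outside both stretches 15 and 2. Over all 47 the shares were 36.2% higher and 6.38% lower, beside 11.5% and 8.88% of protein-coding genes. Cdkn1a, encoding the cell cycle inhibitor p21, stood at 163 and 172 CPM in KH2, 37.1 and 59.5 in set 1, and 73.8 and 71.4 in set 2, a log2 fold change of 1.69 ± 0.19 and 1.22 ± 0.16 (edgeR adjusted p = 6.64e-08 and 6.52e-07). The pro-apoptotic gene Bbc3 stood at 270.5 and 282 CPM in KH2, 70.2 and 71.9 in set 1, and 131 and 113 in set 2 (1.85 and 1.20). Gdf15, a secreted stress factor gene, stood at 47.3 and 46.9 CPM in KH2, 3.23 and 9.10 in set 1, and 17.6 and 11.1 in set 2 (2.83 and 1.82). In all 3 the KH2 samples were above the R1 samples. Ddit4 stood at 1240.5 and 1241 CPM in KH2, 84.7 and 89.3 in set 1, and 319 and 212 in set 2. Its set 2 libraries differed, at 123 and 465 CPM in the first and second library of 2a and 142 and 422 in those of 2b. The call against set 2 was lost with single libraries and the replicate number as a block (2.18, edgeR adjusted p = 0.114). The transcript of p53 itself, Trp53, was lower (-1.27 and -0.65), as were Perp (-0.60 and -0.79) and Gadd45a, the last within the chromosome 6 stretch. Mdm2, the ubiquitin ligase of p53, was higher than set 1 alone (1.10 and 0.23; edgeR adjusted p = 1.32e-06 and 0.179).

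Amino acid and unfolded protein stress genes were higher in 12 of 34 tested members (35.3%) and lower in 5 (14.7%), with medians of 0.26 and 0.76. Among protein-coding genes 11.5% were higher and 8.88% lower. Atf4, the transcription factor of this response, stood at 954 and 1025 CPM in KH2, 432 and 389.5 in set 1, and 471 and 387 in set 2, a log2 fold change of 1.16 ± 0.15 and 1.21 ± 0.14 (edgeR adjusted p = 5.18e-07 and 2.05e-07). Asns, asparagine synthetase (0.67 and 2.51), Nupr1 (1.56 and 2.65) and Ddit3, encoding CHOP (1.31 and 0.89), were higher. A second Ddit3 gene model overlaps the one measured here and had 0 counts in all 6 samples, and since reads in both models are left out under default counting, the level of Ddit3 is uncertain. Chac1, a glutathione-degrading enzyme gene (-3.07 and -1.36), and Xbp1 (-0.70 and -1.27) were lower.

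The metallothioneins, small metal-binding proteins induced by zinc, other metals and glucocorticoids, were among the most abundant genes kept as higher. Mt2 stood at 4202 and 4208 CPM in KH2, 198 and 197 in set 1, and 689 and 792 in set 2, a log2 fold change of 4.31 ± 0.16 and 2.51 ± 0.14 (edgeR adjusted p = 8.03e-18 and 1.32e-13). Mt1 stood at 1108 and 1311 CPM in KH2, 152 and 166 in set 1, and 149 and 189 in set 2, a log2 fold change of 2.82 ± 0.16 and 2.84 ± 0.15 (edgeR adjusted p = 1.63e-13 and 7.34e-14). KH2 with Dox had 4808 and 5300.1 CPM of Mt2, and R1 knockout samples ran over 187 to 699.9 CPM. Of 36 tested glutathione, thioredoxin and metallothionein genes, 6 were kept as higher, with Prdx2 (1.44 and 1.97) and Gstm2 (1.44 and 1.99) among them, and 2 as lower (0 without the first KH2 sample and 4 without 1a). The shares kept in this list were 16.7% higher and 5.56% lower, beside 11.5% and 8.88% of protein-coding genes. The fibroblast marker sums were higher in untreated KH2 (2956 to 3001 CPM) than in R1 WT (873 to 1691), as were Mt2, Aldoc, Ndrg1, Atf4 and Cdkn1a. In the R1 knockout samples the sums were 2039 to 2520 CPM, overlapping 2104 and 2301 in KH2 with Dox. The sums overlapped, but the collagen genes among their members did not. Col1a1 ran over 44.6 to 64.9 CPM in knockout against 359 and 304 CPM in KH2 with Dox, and Col1a2 over 9.04 to 33.1 against 79.4 and 67.9 CPM. Mt2 stayed apart in the same samples, as given above. Aldoc ran over 8.74 to 39.5 CPM in knockout against 152 and 154 CPM in KH2 with Dox. Ndrg1 ran over 11.6 to 32.3 against 133 and 136 CPM, and Atf4 over 333 to 591 against 1017 and 1353 CPM. Cdkn1a did overlap there, at 157 to 251 CPM in knockout and 169 and 143 CPM in KH2 with Dox. The part of feeder RNA in these genes was not tested.

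Imprinted genes, expressed from 1 parental copy, moved in both directions. The shares kept as higher and lower were 16.7% and 22.9%, beside 11.5% and 8.88% of protein-coding genes. Of 48 tested, 8 were kept as higher and 11 as lower, with medians of -0.09 and -0.39, and the lower count was 5 without the first KH2 sample, 6 without 1a, 7 without 1b and 6 without 2b. H19, a maternally expressed non-coding RNA at chr7:142575529-142578143, stood at 99.9 and 125 CPM in KH2, 0.807 and 0.827 in set 1, and 7.80 and 7.68 in set 2. It was 115-fold higher (95% counting interval 31.9 to 954, from 1031 counts in KH2 and 2 in set 1) than set 1 and had a log2 fold change of 3.88 ± 0.20 against set 2 (edgeR adjusted p = 4.03e-14 there). In KH2 with Dox, H19 had 54.1 and 49.7 CPM, and the R1 knockout samples ran over 17.5 to 50.4 CPM, so these groups overlapped. Peg10, a paternally expressed retrotransposon-derived gene, stood at 18.4 and 13.7 CPM in KH2, 83.9 and 67.8 in set 1, and 63.1 and 62.2 in set 2 (-2.34 and -1.95). Rian, a non-coding RNA of the Dlk1-Dio3 cluster, was lower (-1.44 and -1.89), as was Kcnq1ot1 (-2.01 and -1.90), which runs antisense to Kcnq1 and was counted without strand. Mest was 15.6-fold lower (95% counting interval 2.98 to 154, from 2 counts in KH2 and 7 in set 1) than set 1 and 29.0-fold lower (95% counting interval 7.77 to 244, from 2 counts in KH2 and 80 in set 2) than set 2. H19 is also expressed by fibroblasts, whose marker sum was higher in KH2 as given above, and the part of feeder RNA in it was not tested.

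By the rule for the largest differences, the genes most above both R1 sets, beyond Col1a1 and Rn7s6, were Scg2, Olig2, Pappa, Rasl2-9, Mgp, Mmp3, Pnp2 and Dner. Scg2, encoding a neuroendocrine secretory protein, had 18.2 and 18.8 CPM in KH2 and 0 in all 4 R1 WT samples, which is at least 12.7-fold higher than set 1 and at least 78.2-fold higher than set 2, with each R1 set taken at 3 counts over its samples. Olig2, a transcription factor of neural progenitors, had 10.7 and 11.9 CPM in KH2, 13.3 and 13.6 CPM with Dox and 0 in the R1 WT samples, at least 7.76-fold higher and at least 47.8-fold higher than the sets in turn. Pappa, a protease of insulin-like growth factor binding proteins, stood at 40.7 and 42.0 CPM in KH2, 0 and 0 in set 1, and 0.325 and 0.541 in set 2, at least 28.4-fold higher than set 1. Mgp, a matrix protein of cartilage and vessel walls, stood at 28.7 and 31.2 CPM in KH2, 0 and 0 in set 1, and 0 and 0.757 in set 2, and the matrix metalloproteinase gene Mmp3 at 24.0 and 27.2 CPM in KH2, 0 and 0 in set 1, and 0.650 and 0.649 in set 2. Fibroblasts also express Mgp and Mmp3. In the R1 knockout samples Mgp ran over 0.369 to 1.65 CPM, against 22.1 and 25.2 CPM in KH2 with Dox. Mmp3 ran over 0 to 3.31 CPM there, against 17.5 and 12.8 CPM. The fibroblast marker sums and Lox overlapped between these groups, but Col1a1, Col1a2 and Col6a3 did not. Col1a1 had 44.6 to 64.9 CPM in knockout against 359 and 304 CPM in KH2 with Dox. The part of feeder RNA in Mgp and Mmp3 was not tested. Pnp2 (KH2 12.8 and 15.9 CPM), Rasl2-9 (21.6 and 19 CPM) and Dner (17.8 and 17.3 CPM) had at most 1.08 CPM in any R1 WT sample. Pnp2 and Rasl2-9 have close paralogs, so their counts are uncertain.

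The genes most below both R1 sets were Aass, Foxq1, Platr7, Ceacam1, Lrp2, Gata6, Car2, Dab2, Tcf15 and Slc7a7. Aass, an enzyme of lysine breakdown, stood at 1.71 and 0.442 CPM in KH2, 42.0 and 39.7 in set 1, and 23.1 and 39.0 in set 2, a log2 fold change of -5.30 ± 0.42 and -4.84 ± 0.38 (edgeR adjusted p = 9.93e-11 and 9.65e-11). Foxq1, a forkhead factor gene, stood at 2.14 and 1.77 CPM in KH2, 36.3 and 33.1 in set 1, and 33.8 and 37.6 in set 2, a log2 fold change of -4.23 ± 0.33 and -4.17 ± 0.29 (edgeR adjusted p = 9.85e-11 and 8.24e-12). Car2, encoding carbonic anhydrase 2, stood at 12.6 and 11.3 CPM in KH2, 280.0 and 224 in set 1, and 98.8 and 128 in set 2, a log2 fold change of -4.50 ± 0.20 and -3.25 ± 0.19 (edgeR adjusted p = 4.65e-16 and 4.61e-13). In these 3 genes the KH2 samples lay well below the lowest R1 sample. The non-coding RNA Platr7 (-3.92 and -3.76), the adhesion molecule gene Ceacam1 (-4.01 and -3.74) and the amino acid transporter gene Slc7a7 (-3.50 and -3.04) were lower by similar amounts.

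Other developmental pathways had members kept in both directions, apart from the Hox and 2-cell lists, and their counts stand beside the shares of 11.5% higher and 8.88% lower among protein-coding genes. Wnt and β-catenin targets had 3 of 31 higher and 5 lower (medians -0.04 and -0.44), among them Notum, a secreted inhibitor of Wnt (-3.24 and -2.45). BMP and Id genes had 4 of 18 higher (2 without the second KH2 sample or 1a) and 4 lower (medians -0.24 and -0.46), with Id2 higher, at 329.8 and 308 CPM in KH2, 70.2 and 81.9 in set 1, and 109 and 112 in set 2, and Id1 lower, at 33.6 and 33.4 CPM in KH2, 70.2 and 102 in set 1, and 127 and 140.0 in set 2. Id1 and Id2 are both targets of BMP signalling and went opposite ways, with log2 fold changes of -1.46 ± 0.19 and -1.99 ± 0.17 and 1.96 ± 0.17 and 1.54 ± 0.14 in turn. Nodal and activin genes had 3 of 19 higher, Smad3 (1.64 and 0.82) among them, and 3 lower (1 without either KH2 sample, 2a or 2b), with medians of -0.16 and -0.06. Neuroectoderm genes had 6 of 20 higher, with Olig2, Cdh2 and the neurofilament gene Nefl (1.29 and 1.82), and 2 lower (1 without either KH2 sample or 1a). Trophectoderm genes had 5 of 16 higher (3 without the first KH2 sample or 2a) and 2 lower. Cadherins and protocadherins had 3 of 14 higher, including Cdh11 (4.10 and 2.20) and Epcam (0.55 and 0.71), and 3 lower (1 without the second KH2 sample or 1b), including Fat1 (-1.36 and -1.61). Hox and retinoic acid genes had 0 of 23 kept as higher and 2 lower, Stra8 (-1.90 and -2.31) and Rarg (-2.38 and -1.52). Against set 1, 5 passed as higher and 3 as lower, and against set 2, 1 and 15. Their medians of 0.75 and -1.47 went opposite ways in the comparisons. Of the 26 autosomal genes of the 2-cell list, 3 were tested and 2 were lower, Dppa2 and Zfp809. The genes Zscan4a to Zscan4f of that list were too low to be tested, so these counts do not describe a 2-cell-like state. The difference of Zfp809 from set 1 was -1.20, and -0.81 without 1b.

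In the housekeeping and immune lists 8.7% to 17.9% of the tested members were kept as higher and 4.35% to 13% as lower, beside 11.5% and 8.88% of protein-coding genes, so these counts say little about the lists. Mitosis and DNA replication genes had 7 of 42 higher (4 without either KH2 sample or 2a), with Kif23 (0.83 and 1.24) and Pold1 (0.96 and 1.10), and 3 lower, of which Mcm2 and Mad2l1 lie in the chromosome 6 stretch. Cholesterol synthesis genes had 2 of 23 higher (1 without the first KH2 sample, 0 without the second, 2a or 2b) and 1 lower (0 without either KH2 sample or 1a). Interferon response genes had 3 of 18 higher (1 without the second KH2 sample) and 1 lower (2 without the first KH2 sample, 0 without the second or 1a). Antigen processing genes had 2 of 23 higher (1 without the second KH2 sample, 2a or 2b), with Tapbp (1.49 and 1.13), and 3 lower (0 without the first KH2 sample, 1 without 1b). Germline genes had 3 of 30 higher, including Ddx4 (1.51 and 1.01), and 3 lower. Ribosomal protein genes went opposite ways in the comparisons, with medians of -1.38 and 0.46 over 67 tested, and had 12 kept as higher (5 without the second KH2 sample) and 7 as lower (4 without 2b). Over the same genes the median of set 2 minus set 1 was -2.75, larger in size than either KH2 median. Ribosomal protein genes have many processed pseudogenes, so their values are uncertain.

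**Figure D4:**
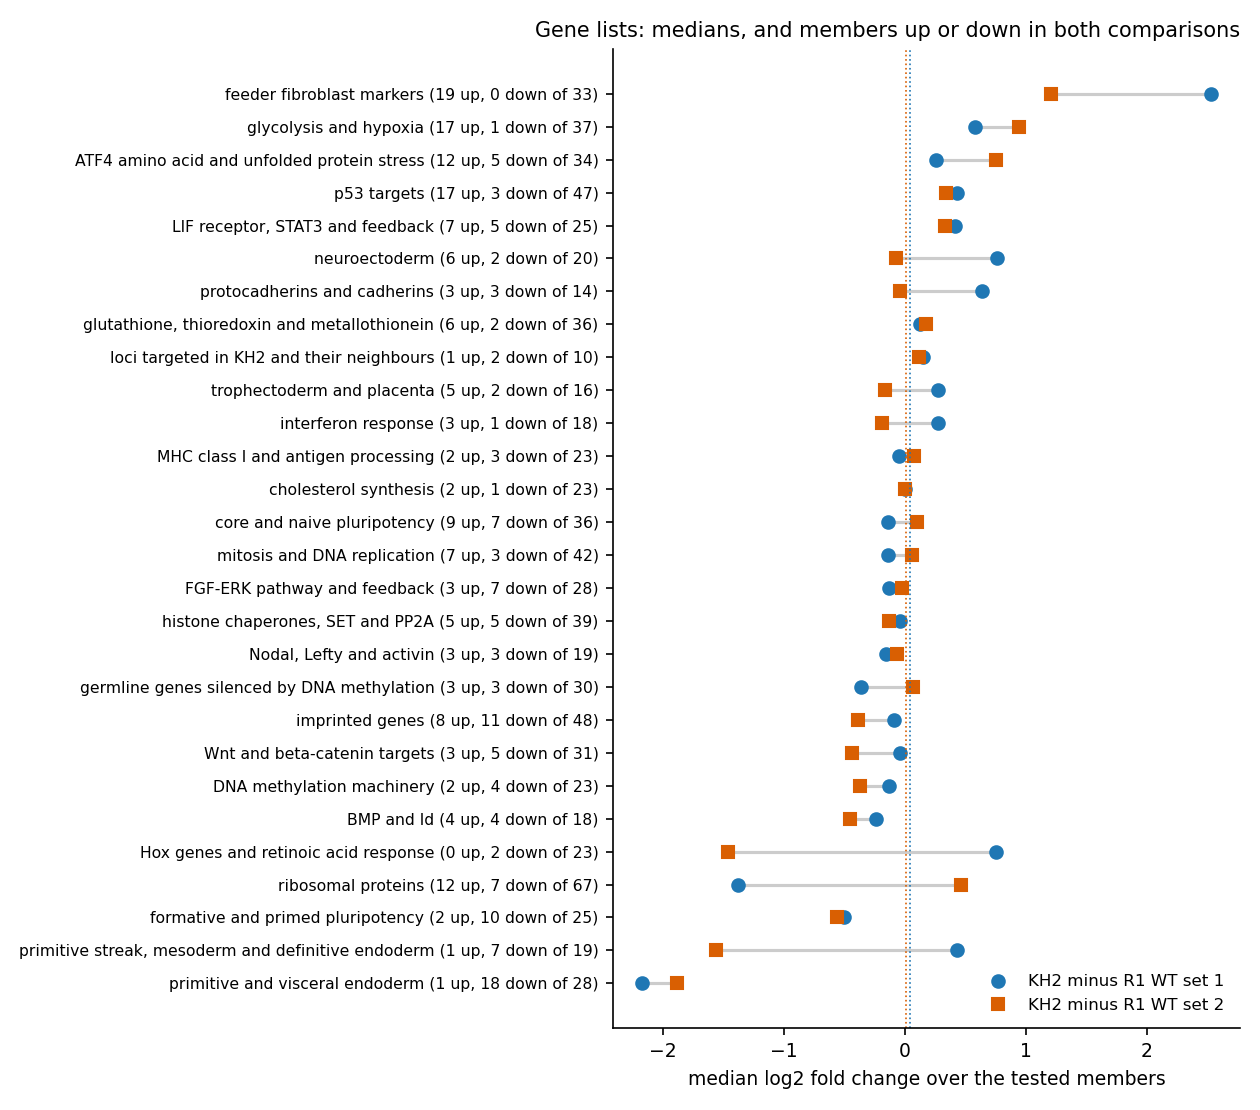
Median log2 fold change over the tested members (x axis) of each gene list with at least 10 tested members (y axis), for KH2 minus R1 set 1 and KH2 minus R1 set 2, with the members kept as higher or lower in the labels. The endoderm list lies lowest in the comparison with set 1 at -2.18 and in that with set 2 at -1.89, and the fibroblast list highest at 2.54 and 1.21. The ribosomal, streak and Hox lists are among those with medians of opposite sign.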

How the data were processed

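Deposited values are raw counts of QuantSeq 3′ tags per gene, made by the authors with featureCounts 1.6.0 under default options on Ensembl 97 (GRCm38), per the file headers. The submitters' processing notes name STAR 2.5.4b, Subread 2.0.0 and the build mm10, without saying which step each served. Default options leave out reads that map to several places and ignore strand, which lowers counts of genes with close copies.

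Libraries sharing a title code were summed. The 6 samples entered 1 edgeR 4.0.16 quasi-likelihood fit (R 4.3.3) by group means with 3 residual degrees of freedom, scaling by TMM, robust dispersions and the filterByExpr limits of 10 counts in enough samples and 15 in total. P-values were adjusted by Benjamini-Hochberg over all 12974 genes tested, X and Y included, at a threshold of 0.05. The main edgeR fit and the DESeq2 Wald test were tried on simulated data, and the other alternative fits were not. Biotypes came from the GENCODE annotation of the same build.

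Named genes were the markers with Set, Nanog, Pou5f1, Sox2 and Gt(ROSA)26Sor, the 10 highest and 10 lowest kept genes with a symbol and at least 10 CPM by the smaller fold change, and up to 4 kept members of each of 29 gene lists by the larger adjusted p. Other genes named from the lists or stretches were chosen after their values were seen. The members and lists were chosen with earlier results of these data known. A side with 0 counts was given a floor of 3 counts over the group, and exact 95% intervals are given where 1 side had 1 to 3 counts. Intervals and floors cover counting error only. Alternatives were DESeq2 1.42.0 size factors, total counts, no low-count filter, the DESeq2 Wald test, single libraries, the replicate number as a block, subsets of the set 2 libraries, all 19 samples in 1 fit, 1 contrast against the mean of both sets, a 2-fold limit, and each sample left out. Protein-coding genes alone, genes outside the stretches, the medians of the stretches under each alternative, and KH2 with Dox against R1 knockout were added after seeing the data. Python 3.11.15, pandas 2.3.3 and matplotlib 3.10.9 made tables and figures.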

Additional observations from a re-analysis of the deposited data

Results flagged for a closer look

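For 49 of the named genes the size of the difference from KH2 depended on which R1 set it was measured against, by the test of R1 set 2 minus set 1 (log2 difference, edgeR, adjusted p below 0.05). Where both comparisons had the same sign, the direction of the KH2 difference was kept and its size was not.

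Among pluripotency and signalling genes, set 2 lay above set 1 for Klf4 (0.427), Egr1 (0.781), Jun (1.18), Id2 (0.424), Id1 (0.528), Id4 (1.30), Dnmt3b (0.925), Zfp809 (0.943) and Set (0.35). It lay below set 1 for Nanog (-0.795), Pou5f1 (-1.22), Sox2 (-0.693), Zfp42 (-0.841), Dppa2 (-0.815), Gbx2 (-2.10), Myc (-1.70), Spry4 (-2.07), Notum (-0.791), Lefty1 (-0.452), Inhbb (-0.719), Bmp4 (-1.84) and Rarg (-0.859).

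Among lineage and fibroblast genes, set 2 was higher for Foxa2 (2.34), Tfap2c (0.719), Col1a1 (2.20), Col1a2 (1.90), Col6a3 (3.75), Lox (2.11), Cdh11 (1.90) and H19 (3.07), and lower for Car2 (-1.25), Dab2 (-0.492) and Apoe (-0.716). The fibroblast genes in this group were thus closer to KH2 in set 2 than in set 1.

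Among stress, immune, cell cycle and chaperone genes, set 2 was higher for Ddit4 (1.49), Bbc3 (0.656), Mt2 (1.79), Bst2 (2.19), Ggps1 (0.713), Hjurp (0.511), Anp32a (0.526) and Ppme1 (1.10). It was lower for Ifitm1 (-0.566), Kif23 (-0.408), Mad2l1 (-0.749), Rpl34 (-3.32), Rpl38 (-0.682), Ppp2r5a (-1.23), Prdx2 (-0.532) and Dnajb9 (-0.622).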

How the results depend on the processing

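The count of genes that differed from both R1 sets was 1741 with libraries kept apart and the replicate number as a block, 5691 for 1 contrast against the mean of both sets, and 1279 with a 2-fold limit in each comparison (824 higher and 455 lower). The block gave 3557 genes against set 2. The replicate numbers do not pair the samples, with correlations of same-numbered deviations of -0.0451, 0.0126 and -0.0291. Leaving out 1 sample gave 4456 to 5621 genes against set 1, 3512 to 6621 against set 2, 1849 to 2512 kept genes and 3396 to 4559 between the R1 sets. The DESeq2 Wald test gave 4614, 3821, 1846 and 3698 in that order, and 1845 of its kept genes were among the 2661.

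Scaling by total counts alone moved the all-gene median against set 1 from 0.0448 to -0.0997 and between the R1 sets from 0.014 to -0.132, and the share of calls that were higher from 54.2% to 44.9% and from 53.8% to 41.2%. The stretch medians kept their sign in each alternative run, from -1.19 to -0.91 and from -1.03 to -0.94 on chromosome 6 and from 0.74 to 0.98 and from 0.88 to 1.10 on chromosome 10. Of 3420 alternative values for the named genes, 3313 kept direction and call, 100 lost the call, 5 gained it and 2 reversed, namely Ppp2r5a (0.13, adjusted p = 0.596 by edgeR) and Itga3 (0.37, adjusted p = 0.425 by edgeR) against set 2 with only the second libraries. The causes of these changes were not tested. The depth of set 1 limits what can be seen for low genes, since its floor of 3 counts is 2.72 to 2.78 CPM.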
